A study of Mus musculus with 17 samples.

Results

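The comparison described here set a change in whole mouse lung in the first experiment against that in the second, gene by gene. Each change was that between mice with an overactive Nlrp3 allele and controls. In the second experiment the mutants also lacked a copy of Il18r1. The members are 13 of the 17 libraries of the series, and 24327 gene names of 24354 lines that both deposited expression tables held in common. In the first experiment, 3 LysMcre;Nlrp3A350V libraries (called the Nlrp3 mutant) were set against 3 Control libraries. In the second, 3 LysMcre;Nlrp3A350V;Il181r+/- libraries (called the Il18r1 het mutant), with 1 intact copy of the IL-18 receptor gene Il18r1, were set against 4 Il18r1 control libraries. For each gene the log2 change of the first experiment minus the log2 change of the second is called the difference. A positive difference means that the change was higher in the first experiment, and a negative one that it was lower there. LysMcre drives recombination in macrophages, monocytes and neutrophils, and is known to be active in some type 2 alveolar cells as well, so the allele was not directed to the lung as a whole. The labels give neither the alleles carried by both kinds of control nor the Il18r1 genotype of the first experiment's mice, and they give no age, sex or litter. Every first-experiment library belongs to one table and every Il18r1 het library to the other, so experiment and Il18r1 dose cannot be told apart in anything that follows. Nothing in the labels ties the libraries of a group to different mice, so the p-values below reflect library-to-library variation that could be purely technical.

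NLRP3 senses cell damage and assembles an inflammasome that switches on caspase-1, and this protease cleaves the precursors of IL-1β and IL-18 into secreted cytokines. IL-18 binds a receptor made of the chains Il18r1 and Il18rap, signals through the adaptor Myd88, and is best known for making natural killer and T cells release interferon-γ. Il18bp encodes a secreted decoy that binds IL-18, and its gene is itself induced by interferon-γ. Interferon-γ induces genes of guanylate-binding proteins, immunity-related GTPases and antigen presentation.

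The libraries are poly(A)-selected bulk RNA, and expression is given as FPKM, which divides fragment numbers by transcript length and by library total. Relative depth, estimated from the spacing of low values, was 0.788 to 1 in the first experiment and 0.750 to 1.11 over the second experiment's libraries used here. Of the genes present, 13885 reached 1 FPKM in at least 3 of the 13 libraries and were tested. Libraries of a group correlated across genes with r of 0.987 to 0.994, and none was a copy of another. Xist, the RNA that silences an X chromosome in females, stood at 40.3, 38.6 and 37.7 FPKM in the Nlrp3 mutants and 0.0426, 0.0121 and 0.0236 in their Controls, and at 45.8, 44.9 and 42.9 in the Il18r1 het mutants and 0.0419, 0.0206, 0.0225 and 0.0322 in the Il18r1 controls. The Y-linked gene Ddx3y ran the other way, at 0.0151, 0 and 0 FPKM in the Nlrp3 mutants and 25.3, 23.4 and 20.7 in Controls, with 0, 0 and 0 in the Il18r1 het mutants and 19.2, 21.2, 19.4 and 21.2 in Il18r1 controls. Both mutant groups thus showed the female pattern of these transcripts and both control groups the male one, so sex and genotype cannot be told apart within either experiment. None of the 5 sex-linked genes tested passed the test of the difference. In bulk lung, fewer cells of a type and less RNA per cell cannot be told apart.

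Il18r1 itself (chromosome 1, 40465552 to 40500854, GRCm38) was higher in the mutants of both experiments. It had 43.4, 40.0 and 41.3 FPKM in the Nlrp3 mutants, against 22.1, 17.9 and 22.2 in Controls. In the Il18r1 het mutants it had 30.7, 29.9 and 31.2 FPKM, against 15.0, 14.0, 14.8 and 13.4 in the Il18r1 controls. The groups did not overlap in either experiment, and the log2 changes were 0.98 and 1.05, a difference of -0.07 ± 0.10 (SE; 95% interval -0.30 to 0.15; limma adjusted p = 0.730). Levels of the separate tables were not tested against each other. Nlrp3 (chromosome 11, 59541568 to 59566956) had 3.14, 2.73 and 2.95 FPKM in the Nlrp3 mutants and 0.973, 1.39 and 1.22 in Controls, with 3.06, 4.08 and 3.63 in the Il18r1 het mutants and 0.945, 2.00, 0.709 and 2.30 in Il18r1 controls. The gene is low in lung, and Il18r1 controls 2 and 4 lay nearer to the mutants than Il18r1 controls 1 and 3. Its changes were 0.85 and 0.93, with a difference of -0.08 ± 0.28 (adjusted p = 0.899); the allele is a missense change, which this level does not check.

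In the first experiment 7924 genes passed the test (limma, Benjamini-Hochberg adjusted p below 0.05), 57.1% of those tested, with 3966 higher (28.6%) and 3958 lower (28.5%). In the second experiment 7754 genes (55.8%) passed, 3818 higher (27.5%) and 3936 lower (28.3%). With every library scaled to the same total FPKM the splits were 2524 higher and 5974 lower in the first experiment, and 2538 higher and 6349 lower in the second. Of 5915 genes called in both, 5852 had the same direction, which is 73.9% of the first experiment's calls and 75.5% of the second's. The log2 changes correlated across the 13885 genes with Pearson r = 0.867 and Spearman rho = 0.847, given as a description since genes are not independent replicates, and a total least squares line had a slope of 1.04. Averaged over both experiments, 9448 genes (68.0%) were called, and 9220 of these moved the same way in both.

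**Figure D1:**
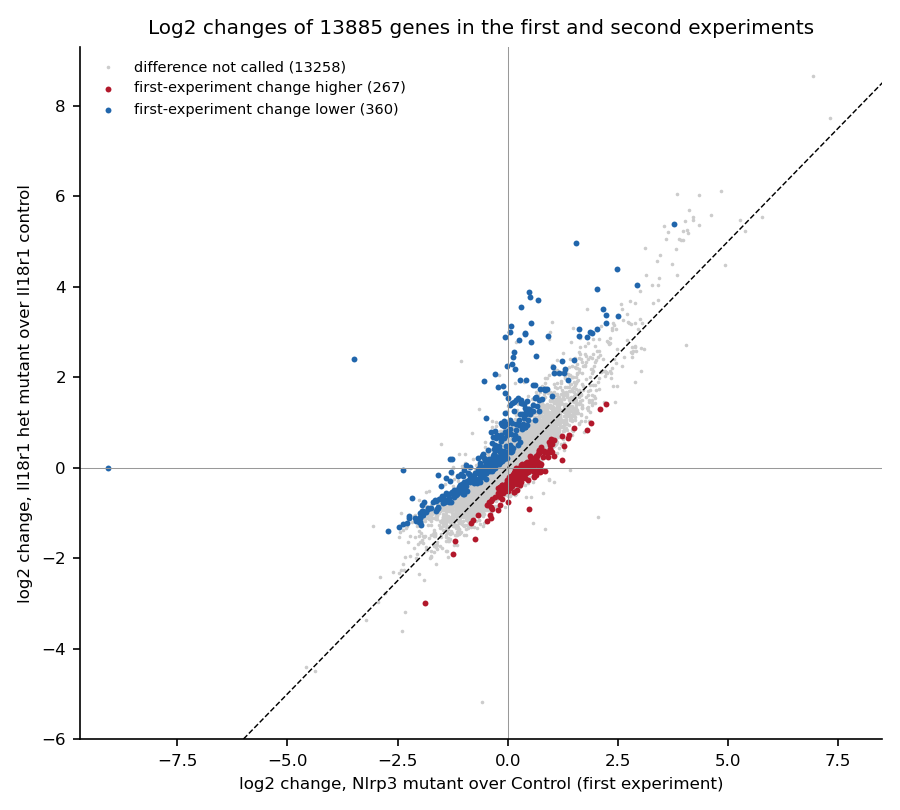
Each point is a gene; the horizontal axis gives its log2 change in Nlrp3 mutant over Control, the vertical axis its log2 change in Il18r1 het mutant over Il18r1 control, and the dashed line marks equal changes. Most of the 13885 genes lie along that line (r = 0.867), while the 360 genes with a lower change in the first experiment (blue) reach farther from it than the 267 with a higher one (red).

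The difference passed the test for 627 genes, 4.52% of those tested: 267 (1.92%) had the higher change in the first experiment and 360 (2.59%) the lower. At an unadjusted p under 0.05 there were 3211. Called negative differences were larger, with a median of -0.69 on the log2 scale against 0.41 for called positive ones, and 84 of them but 3 positive ones reached a size of 1. By class, 139 of the 627 changed in the same direction in both experiments and more strongly in the first, 83 more strongly in the second, 182 were called in the first experiment alone, 165 in the second alone, and 58 were called in opposite directions. Among the 646 genes whose mean rise was at least 1, the median rise was 1.34 in the first experiment, against 1.53 in the second, and called differences were larger in the first for 7 and in the second for 56. Among the 408 genes with a mean fall of at least 1 the order was the other way, with median changes of -1.44 and -1.13, and with 46 called falls deeper in the first and 5 deeper in the second. Scaling every library to the same total FPKM moved the split of the difference to 156 higher and 371 lower. The median change of all genes was then -0.15 in the first experiment, against -0.16 in the second. The difference's own median was -0.0025 before this scaling and -0.0057 after it.

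The number of called differences depended strongly on single libraries. It was 42 without Nlrp3 mutant 3, 110 without Nlrp3 mutant 2, 64 without Control 2 and 240 without Control 1. Without an Il18r1 control it was 349, 176, 184 and 221 (libraries 1 to 4), and without Il18r1 het mutant 2 it was 377. Leaving out any other library gave 484 to 916. All 627 genes kept their direction in each of these 13 fits, and 36 were called in every one, 18 higher and 18 lower. For the genes below, the number of these 13 fits in which the call held is given as a count of 13.

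The interferon-γ response genes were the list with the most called differences. The 43 lists and their members were chosen with earlier results of these data known, so this rank is a description only. Of 28 tested members, 1 rose and 7 fell in the Nlrp3 mutant, while 21 rose and 2 fell in the Il18r1 het mutant; of all genes, 28.6% and 27.5% rose and 28.5% and 28.3% fell. The median change was 0.01 in the first experiment, against 1.93 in the second, beside 0.0018 and -0.01 over all genes tested. The difference was negative for all 28 members and called for 18, where 2.59% of all genes were called lower, with a median of -2.0. The 18 included the guanylate-binding proteins Gbp2 to Gbp7, the immunity-related GTPases Igtp, Irgm1, Irgm2, Iigp1 and Tgtp1, the transcription factors Irf1 and Nlrc5, the peptide transporter Tap1, the immunoproteasome subunits Psmb8 and Psmb9, and the chemokine Cxcl10. Promoter sequence of 4 of them is shown because these genes moved together. The 120 bases before the annotated start are printed 5′ to 3′ on the gene's strand from RefSeq for GRCm38.p6, with capitals marking the core of an interferon-stimulated response element (GAAA, any 2 bases, GAAA) or a gamma-activated site (TTCNNNGAA), searched on both strands.
Gbp2, chr3:142620543-142620662, plus strand: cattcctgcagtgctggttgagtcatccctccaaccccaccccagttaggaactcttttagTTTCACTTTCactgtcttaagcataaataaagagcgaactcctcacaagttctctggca
Irgm2, chr11:58214857-58214976, plus strand: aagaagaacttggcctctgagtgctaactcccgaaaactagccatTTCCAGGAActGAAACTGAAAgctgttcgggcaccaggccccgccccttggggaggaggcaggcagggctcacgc
Igtp, chr11:58199436-58199555, plus strand: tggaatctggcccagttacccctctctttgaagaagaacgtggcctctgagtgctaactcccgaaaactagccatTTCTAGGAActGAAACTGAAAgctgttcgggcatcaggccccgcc
Tgtp1, chr11:48992247-48992366, minus strand: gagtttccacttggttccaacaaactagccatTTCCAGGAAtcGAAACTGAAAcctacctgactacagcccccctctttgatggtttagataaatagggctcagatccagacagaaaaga
In Irgm2, Igtp and Tgtp1 both motifs stand 2 bases apart without overlap, and the response element of Gbp2 lies on the opposite strand. Within 250 bases before the start, the response element core occurred in 10 of the 20 list members with a promoter in the RefSeq table (50.0%), against 3.46% of 27025 genes in all. The gamma-activated site occurred in 8 of the 20 (40.0%), against 8.13%. A match is a description of letters and not of a bound site, and the shares describe a list chosen with earlier results known.

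Gbp2, a GTPase that attacks pathogen vacuoles, had 26.4, 18.8 and 22.1 FPKM in the Nlrp3 mutants and 10.0, 20.6 and 16.1 in Controls. It had 58.8, 80.9 and 368 FPKM in the Il18r1 het mutants and 11.1, 12.8, 12.1 and 13.3 in Il18r1 controls. Mutants and Controls of the first experiment overlapped, while all 3 het mutants lay above all 4 of their controls, with library 3 far above the others. The changes of 0.54 and 3.19 differed by -2.65 ± 0.67 (adjusted p = 0.0459; call held in 4 of 13). Gbp4, of the same family, showed 18.5, 14.5 and 15.9 FPKM in the Nlrp3 mutants and 9.40, 24.3 and 16.8 in Controls, against 56.0, 58.4 and 186 in the Il18r1 het mutants and 9.13, 12.0, 8.83 and 9.57 in Il18r1 controls. Control 2 was the highest library of the first experiment, all het mutants lay above their controls, and the difference was -2.95 ± 0.53 (adjusted p = 0.0215; held in 11 of 13). For Igtp the values were 24.7, 16.7 and 21.9 FPKM in the Nlrp3 mutants, 9.07, 31.8 and 15.9 in Controls, 83.6, 77.0 and 321 in the Il18r1 het mutants and 9.09, 11.7, 9.13 and 10.3 in Il18r1 controls. Control 2 was above every Nlrp3 mutant, and the difference was -3.24 ± 0.65 (adjusted p = 0.0243; held in 10 of 13). Irgm2 differed by -2.59 ± 0.51 (adjusted p = 0.0223; held in 10 of 13), and its annotated span overlaps that of Igtp, so reads could be shared. Gbp5 and Tgtp1 differed by -3.40 and -3.02 (adjusted p = 0.0298 and 0.0319; each held in 6 of 13). These families hold near-identical copies, and how reads that fit several copies were counted is not given in the sources used here.

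Cxcl10, which draws T cells, had 2.16, 0.389 and 1.5 FPKM in the Nlrp3 mutants and 0.658, 1.74 and 1.71 in Controls, and 11.3, 5.74 and 27.8 in the Il18r1 het mutants and 0.459, 0.855, 1.04 and 0.868 in Il18r1 controls. The het mutants were the highest libraries of their experiment, while Nlrp3 mutants and Controls overlapped, and the difference was -2.96 ± 0.59 (adjusted p = 0.0234; held in 10 of 13). Psmb9, an immunoproteasome subunit, differed by -1.91 ± 0.37 (adjusted p = 0.0223; held in 10 of 13). Batf2, an interferon-induced transcription factor that is not in the list, differed by -2.57 ± 0.67 (adjusted p = 0.0491; held in 2 of 13). The class II antigen presentation gene Cd74, a member of the list that encodes the invariant chain, fell in both experiments, with 42.0, 28.6 and 40.3 FPKM in the Nlrp3 mutants and 184, 190.3 and 152 in Controls, and 103, 82.7 and 196 in the Il18r1 het mutants and 269, 238, 227 and 289 in Il18r1 controls. Its changes of -2.23 and -1.09 left a difference of -1.14 ± 0.34 that was not called (adjusted p = 0.0717).

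**Figure D2:**
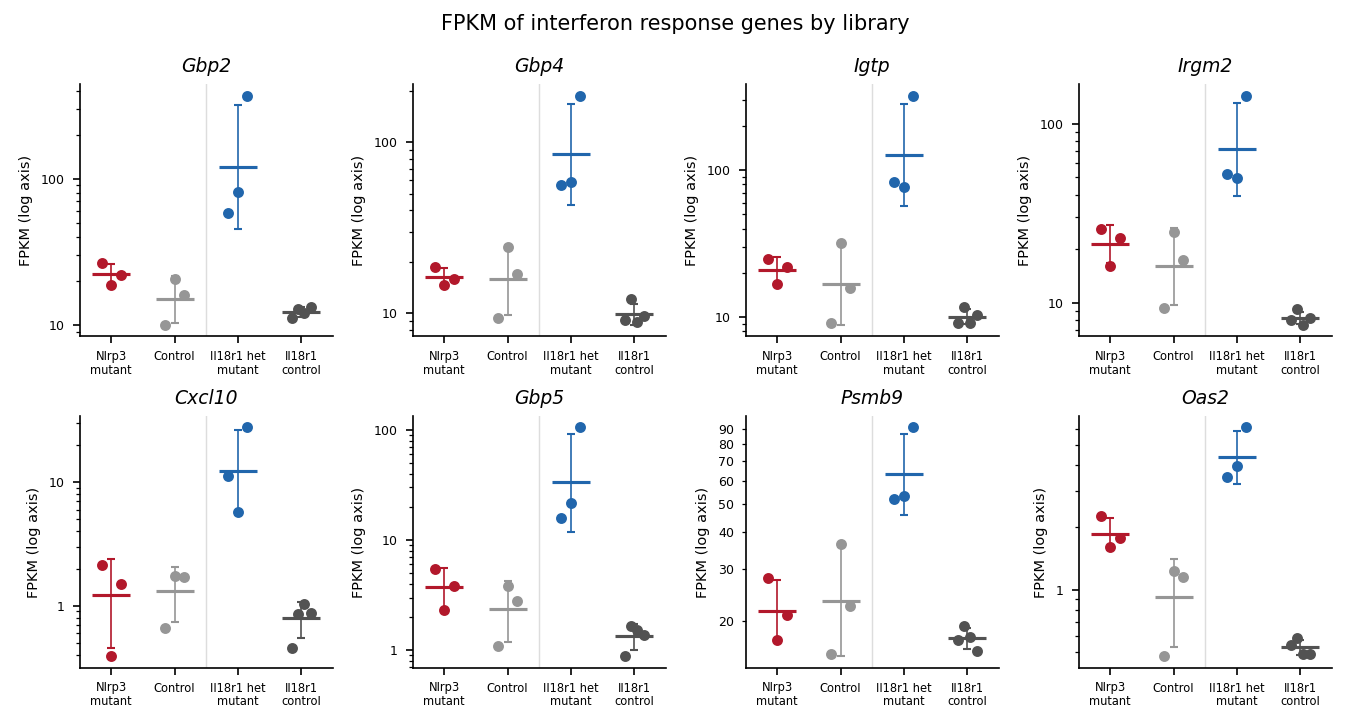
FPKM on log axes of 8 interferon response genes in each library; points are libraries, bars the group mean ± SD of log2(FPKM + 1) turned back to FPKM, and the grey line separates the experiments. Gbp2 stood at 58.8, 80.9 and 368 in the 3 Il18r1 het mutants, while Nlrp3 mutants and Controls lay together at 10.0 to 26.4.

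Il18r1 het mutant 3 stood apart in this list. The members' median log2 change against the mean of their own controls was 0.25, -0.22 and 0.07 in Nlrp3 mutants 1 to 3 and 1.42, 1.56 and 2.81 in het mutants 1 to 3, so het mutant 3 was the highest. Without het mutant 3, 22 of the 28 were called lower, among them all 18, and the Gbp2 difference was -1.85. Without Nlrp3 mutant 3 or Control 2 the count was 0 and without Nlrp3 mutant 2 it was 1, while without an Il18r1 control it was 7 to 10. The list's median difference lay between -2.27 and -1.62 over all 13 such fits. Ifng itself was at most 0.0693 FPKM in the Nlrp3 mutants, 0.0727 in Controls, 0.164 in the Il18r1 het mutants and 0.120 in Il18r1 controls, and was too low to test. Markers of T and natural killer cells, which make interferon-γ, summed to 16.3 to 19.9 FPKM in the Nlrp3 mutants, 17.8 to 27.7 in Controls, 16.2 to 23.8 in the Il18r1 het mutants and 23.3 to 28.1 in Il18r1 controls. Of the 10 tested markers 1 differed, beside 4.52% of all genes. It was the granzyme Gzmb, with a change lower by 0.68 on the log2 scale in the first experiment.

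Type I interferon response genes also had lower changes in the first experiment where called. Of 19 tested, 1 rose and 2 fell in the Nlrp3 mutant, while 14 rose and 1 fell in the Il18r1 het mutant. Of all genes 28.6% and 27.5% rose, and 28.5% and 28.3% fell. In the difference 8 were called lower and none higher, where 2.59% of all genes were lower, with a median of -1.13. Oas2, which senses viral double-stranded RNA, had 2.27, 1.60 and 1.77 FPKM in the Nlrp3 mutants and 0.476, 1.23 and 1.15 in Controls, and 3.49, 3.96 and 6.09 in the Il18r1 het mutants and 0.538, 0.585, 0.491 and 0.490 in Il18r1 controls. Mutants lay above controls in both experiments, and the changes of 0.58 and 1.82 differed by -1.24 ± 0.24 (adjusted p = 0.0223; held in 10 of 13). Its relative Oas3 and the signalling factor Stat2 differed by -1.30 ± 0.26 and -1.13 ± 0.26 (adjusted p = 0.0243 and 0.0368; held in 9 and 5 of 13). The count of 8 became 0 without Nlrp3 mutant 2, Nlrp3 mutant 3 or Control 2, and 1 or 2 without Control 3 or any of the Il18r1 controls. Het mutant 3 again led, with a list median of 0.47, 0.36 and 1.52 in het mutants 1 to 3.

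In the IL-18 pathway the decoy differed and the ligand and receptor did not pass the test. Il18bp had 5.08, 3.41 and 4.29 FPKM in the Nlrp3 mutants and 2.84, 2.03 and 2.24 in Controls. It had 12.9, 13.3 and 42.4 FPKM in the Il18r1 het mutants and 2.50, 3.05, 2.63 and 2.56 in Il18r1 controls. Mutants exceeded controls in both experiments, by 0.64 and 2.48 on the log2 scale, and het mutant 3 was the highest library. The difference was -1.84 ± 0.44 (adjusted p = 0.0406, 0.00638 to 0.0945 over the 13 fits, held in 4). Il18, the ligand, had 21.2, 14.9 and 16.7 FPKM in the Nlrp3 mutants and 8.71, 5.88 and 7.14 in Controls, and 10.2, 12.9 and 10.7 in the Il18r1 het mutants and 5.66, 4.42, 5.61 and 5.35 in Il18r1 controls. Every mutant exceeded every control, and the changes of 1.17 and 0.97 gave a difference of 0.21 ± 0.20 (95% interval -0.22 to 0.63; adjusted p = 0.570). Il18rap, the second receptor chain, rose by 1.78 and 1.96, with a difference of -0.18 ± 0.24 (95% interval -0.69 to 0.34; adjusted p = 0.712). Myd88, the adaptor, rose in both, with 48.0, 43.2 and 44.1 FPKM in the Nlrp3 mutants and 23.9, 25.4 and 26.9 in Controls, and 49.0, 52.7 and 53.6 in the Il18r1 het mutants and 21.6, 23.5, 22.1 and 24.9 in Il18r1 controls. Its difference of -0.33 ± 0.09 missed the threshold (adjusted p = 0.0546). Over the list of 10 tested genes 1 was called, beside 4.52% of all genes.

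**Figure D3:**
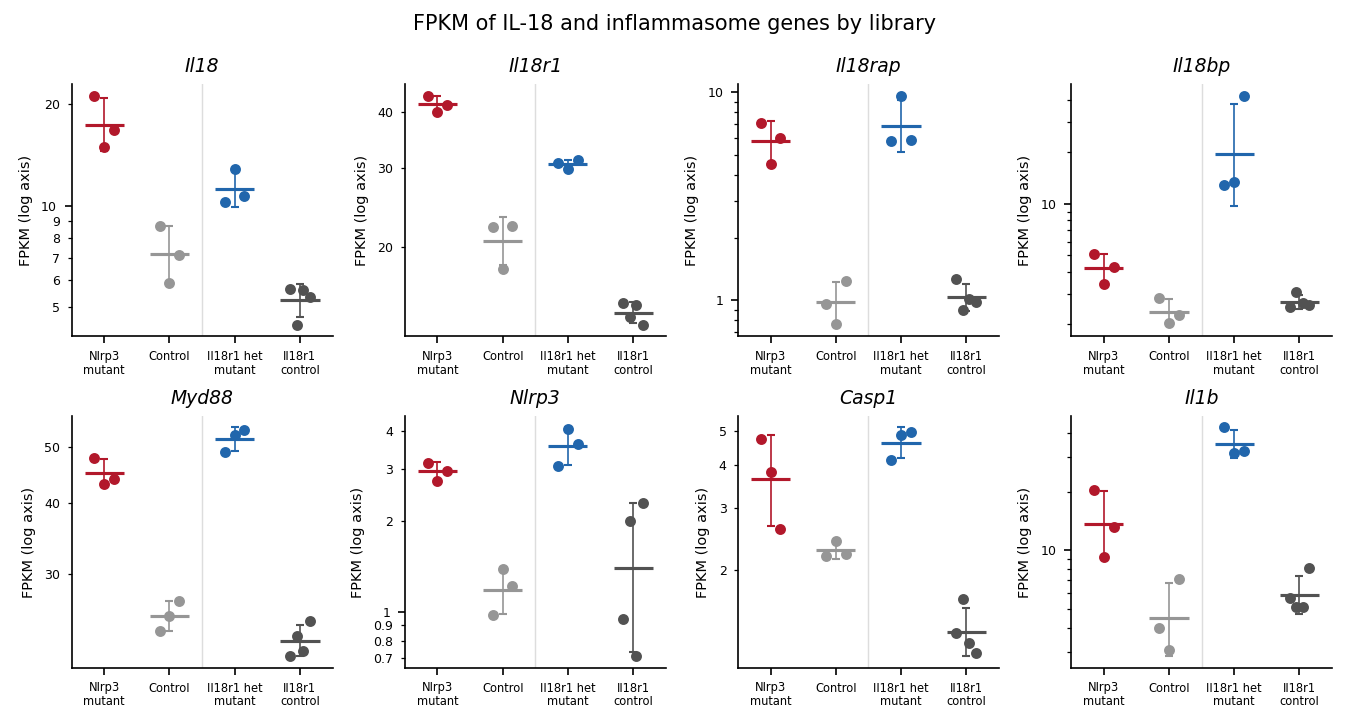
FPKM on log axes of IL-18 pathway and inflammasome genes in each library; points are libraries and bars the group mean ± SD of log2(FPKM + 1) turned back to FPKM. Mutants lie above their own controls in both experiments for all 8 genes, and Il18bp has its highest value, 42.4, in Il18r1 het mutant 3.

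Downstream of the sensor, Casp1, the caspase that cleaves IL-18, had 4.74, 3.80 and 2.61 FPKM in the Nlrp3 mutants and 2.19, 2.42 and 2.21 in Controls, and 4.12, 4.85 and 4.94 in the Il18r1 het mutants and 1.32, 1.65, 1.24 and 1.16 in Il18r1 controls. Every mutant was above every control of its experiment, and the changes of 0.50 and 1.27 differed by -0.77 ± 0.19 (adjusted p = 0.0450; held in 2 of 13). It was the 1 called gene of 13 tested in the inflammasome and pyroptosis list, beside 4.52% of all genes. Gsdmd, the pore former, and Txnip, an NLRP3-binding protein, differed by -0.48 and 0.48 (adjusted p = 0.0897 and 0.0571). Il1b had 20.4, 9.19 and 13.2 FPKM in the Nlrp3 mutants and 3.97, 3.07 and 7.12 in Controls, and 42.7, 31.6 and 32.3 in the Il18r1 het mutants and 5.67, 5.11, 5.08 and 8.09 in Il18r1 controls. Every mutant was above every control of its experiment, and the difference of the changes, -0.98 ± 0.38 (95% interval -1.80 to -0.16), was not called (adjusted p = 0.147). Among IL-1 family genes 1 of 11 differed, beside 4.52% of all genes. It was Il1f9, which encodes IL-36γ, with changes of 2.51 and 3.35 and a difference of -0.84 ± 0.21 (adjusted p = 0.0451, held in 3 of 13).

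Tnf was low in every group, at 1.08, 1.19 and 1.54 FPKM in the Nlrp3 mutants and 0.848, 1.21 and 1.20 in Controls, and 2.30, 1.57 and 1.02 in the Il18r1 het mutants and 0.879, 0.80, 0.697 and 1.07 in Il18r1 controls. Groups overlapped in both experiments, and its difference was -0.35 ± 0.22 (adjusted p = 0.355). Of 26 tested TNF family and NF-κB response genes, 20 rose in the Nlrp3 mutant and 21 in the het mutant, beside 28.6% and 27.5% of all genes. In the difference 3 were called, beside 4.52% of all genes; the count was 7 without Nlrp3 mutant 1, 4 without het mutant 3, and 1 or 2 without any other library. Tnfaip2, a TNF-induced gene of myeloid and endothelial cells, had 17.1, 13.7 and 16.1 FPKM in the Nlrp3 mutants and 9.24, 8.02 and 9.47 in Controls, and 23.7, 25.1 and 31.5 in the Il18r1 het mutants and 7.86, 7.06, 6.65 and 7.70 in Il18r1 controls. It rose in both without overlap, by 0.74 and 1.73, and the difference of -0.99 ± 0.15 (adjusted p = 0.0116) held in all 13 fits. Nfkbie, an inhibitor of NF-κB, had the smaller rise in the first experiment too (0.45 and 1.06; difference -0.61 ± 0.15, adjusted p = 0.0407, held in 3 of 13). Traf1, a TNF receptor adaptor, went the other way, with changes of 0.64 and -0.17 and a difference of 0.81 ± 0.18 (adjusted p = 0.0314; held in 4 of 13).

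Most neutrophil markers rose in both experiments, and most of the differences in size missed the threshold. Of 17 tested markers, 16 rose in the Nlrp3 mutant and 17 in the Il18r1 het mutant, beside 28.6% and 27.5% of all genes, with median changes of 2.47 and 4.40. The median of the members' own differences was smaller, at -0.97, and lay between -1.27 and -0.73 with 1 library left out. The change was larger in the second experiment for 16 of the 17, and 3 differences were called, beside 4.52% of all genes (2 to 5 without 1 library, the most without Nlrp3 mutant 1). Summed marker levels were 9734 to 15622 FPKM in the Nlrp3 mutants, 427 to 1416 in Controls, 10600.0 to 20395 in the Il18r1 het mutants and 269 to 379 in Il18r1 controls. The ranges of the mutants overlapped, while all Controls of the first experiment were above all Il18r1 controls; these levels are set across separately normalised tables and were not tested. Mmp9, a matrix protease stored in neutrophil granules, had 36.3, 25.5 and 32.5 FPKM in the Nlrp3 mutants and 4.83, 4.00 and 5.65 in Controls, and 60.6, 101 and 46.5 in the Il18r1 het mutants and 3.04, 1.86, 1.89 and 1.98 in Il18r1 controls. Its changes of 2.47 and 4.40 differed by -1.93 ± 0.32 (adjusted p = 0.0151), a call that held in all 13 fits. Irg1, which makes itaconate in activated myeloid cells, also held in all 13, with 2.40, 0.689 and 1.49 FPKM in the Nlrp3 mutants and 0.122, 0.338 and 0.392 in Controls, and 6.11, 5.74 and 9.56 in the Il18r1 het mutants and 0.0516, 0.0834, 0.0467 and 0.0616 in Il18r1 controls. No mutant overlapped its controls in either experiment, and the difference was -1.98 ± 0.30 (adjusted p = 0.0116). The receptor Trem1 differed by -0.95 ± 0.25 (adjusted p = 0.0498; held in 2 of 13).

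Several abundant neutrophil and acute phase genes were not among the called differences. S100a8, a calprotectin subunit, had 6153, 3887 and 5525 FPKM in the Nlrp3 mutants and 242, 135 and 473 in Controls, and 4644, 6869.7 and 3743 in the Il18r1 het mutants and 90.3, 80.4, 71.4 and 61.1 in Il18r1 controls. It rose by 4.35 and 6.02 without overlap in either experiment, and the difference of -1.67 ± 0.49 was not called (adjusted p = 0.0704). Saa3, an acute phase protein, had the largest mean rise of all genes tested, with changes of 6.94 and 8.67 and a difference of -1.73 ± 0.57 (adjusted p = 0.0946). Serpina3n, a protease inhibitor, rose by 7.32 and 7.74, a difference of -0.42 ± 0.21 (adjusted p = 0.245). The neutrophil collagenase Mmp8 and the granule proteins Lcn2 and Ltf differed by -0.97, -1.11 and -1.74 (adjusted p = 0.153, 0.0641 and 0.0768). Of 19 acute phase and antimicrobial genes 18 rose in each experiment, beside 28.6% and 27.5% of all genes. For none was the difference called, beside 4.52% of all genes, and 11 had an unadjusted p under 0.05, beside 23.1%. Without Nlrp3 mutant 1, het mutant 3 or Control 3, 4, 2 and 1 were called lower. Cebpe, a transcription factor of granule formation, was the 1 called gene of 8 granule precursor genes, beside 4.52% of all genes. Its difference was -1.05 ± 0.22 (adjusted p = 0.0267, held in 8 of 13).

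Monocyte and macrophage genes were mixed. Of 13 monocyte markers 5 were called lower, beside 2.59% of all genes: Ly6c2, Itgal, Plac8, Treml4 and Csf1r. The count was 0 without Control 2, Nlrp3 mutant 2 or Nlrp3 mutant 3, 1 to 3 without Control 3, het mutant 1 or 2 or any Il18r1 control, and 5 without any other library. Ly6c2, the surface marker of inflammatory monocytes, had 53.4, 38.6 and 43.1 FPKM in the Nlrp3 mutants and 15.9, 16.5 and 24.1 in Controls, and 71.1, 107 and 89.8 in the Il18r1 het mutants and 18.6, 13.3, 16.1 and 17.4 in Il18r1 controls. Mutants were above controls in both, by 1.23 and 2.37, a difference of -1.14 ± 0.25 (adjusted p = 0.0295; held in 7 of 13). The integrin Itgal and the monocyte gene Plac8 rose in the second experiment alone, with changes of -0.37 and 0.78 and of 0.05 and 1.39, and their differences were -1.15 and -1.34 (adjusted p = 0.0234 and 0.0380; held in 10 and 4 of 13). Aif1, a gene of activated macrophages picked after its values were seen, had 4.39, 4.40 and 4.72 FPKM in the Nlrp3 mutants and 4.87, 4.99 and 4.62 in Controls, and 8.55, 6.65 and 9.38 in the Il18r1 het mutants and 3.01, 4.00, 3.76 and 3.22 in Il18r1 controls. Mutants and Controls overlapped in the first experiment and every het mutant was above its controls in the second, and the difference of -1.11 ± 0.15 (adjusted p = 0.00740) held in all 13 fits. Among macrophage markers, the scavenger receptor Marco (-1.21, adjusted p = 0.0461, held in 3) and the complement subunit C1qb (-0.56, adjusted p = 0.0387, held in 2) rose less in the first experiment. The fatty acid receptor Cd36 (0.44, adjusted p = 0.0215, held in 11) and the haemoglobin scavenger receptor Cd163 (0.79, adjusted p = 0.0252, held in 7) rose more there. Lyz2, whose locus carries LysMcre, changed by 0.92 and 0.46, with Il18r1 control 1 at 910 FPKM below the others (1691 to 1892), and the difference of 0.47 ± 0.33 was not called (adjusted p = 0.426).

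Proliferation genes fell in both experiments, and the called differences were deeper falls in the first. All 26 tested members fell in both, beside 28.5% and 28.3% of all genes. Their median change was -1.94 in the Nlrp3 mutant and -1.08 in the Il18r1 het mutant. Every one had the lower change in the first experiment; 8 differences were called, beside 2.59% of all genes, and all 26 had an unadjusted p under 0.05, against 23.1% of all genes tested. Mcm3, a subunit of the replicative helicase, had 11.3, 8.31 and 10.2 FPKM in the Nlrp3 mutants and 32.2, 35.2 and 32.0 in Controls, and 23.3, 19.1 and 14.7 in the Il18r1 het mutants and 29.5, 33.4, 34.4 and 28.1 in Il18r1 controls. Mutants were below controls without overlap in both, and the changes of -1.65 and -0.71 differed by -0.94 ± 0.19 (adjusted p = 0.0254; held in 10 of 13). Kif20a, a kinesin of cytokinesis, had 2.46, 1.60 and 2.33 FPKM in the Nlrp3 mutants and 10.9, 11.9 and 10.2 in Controls, and 6.73, 4.15 and 3.73 in the Il18r1 het mutants and 8.22, 9.25, 9.87 and 9.15 in Il18r1 controls. Here too no mutant reached a control, and the difference was -1.13 ± 0.22 (adjusted p = 0.0223; held in 10 of 13). Cenpf, a kinetochore protein, differed by -0.86 ± 0.18 (adjusted p = 0.0275; held in 7 of 13). The count of 8 became 0 without Nlrp3 mutant 2, Nlrp3 mutant 3 or Control 2, 2 or 3 without Control 1, Il18r1 het mutant 2 or any Il18r1 control, 18 without Nlrp3 mutant 1 and 23 without het mutant 3. By library the list's median change was -1.72, -2.11 and -1.86 in the Nlrp3 mutants and -0.68, -1.16 and -1.39 in the het mutants.

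The next genes were gathered from those with calls in all 13 fits after their values were seen, and stand for no list. Ccnd1, the cyclin that drives cells into the cycle, had 55.2, 49.5 and 53.3 FPKM in the Nlrp3 mutants and 101, 97.9 and 99.6 in Controls. It had 79.7, 72.6 and 72.2 FPKM in the Il18r1 het mutants and 83.9, 80.0, 79.2 and 82.1 in Il18r1 controls. It fell by 0.90 on the log2 scale in the first experiment with a wide gap, and overlapped in the second, where the change was -0.12. The difference of -0.79 ± 0.07 (adjusted p = 0.000538) held in all 13 fits. Ccng2, an atypical cyclin found in cells that leave the cycle, moved in opposite directions, with 38.9, 38.7 and 38.3 FPKM in the Nlrp3 mutants and 36.8, 33.9 and 34.5 in Controls, and 22.1, 21.4 and 24.1 in the Il18r1 het mutants and 32.2, 35.0, 33.0 and 32.1 in Il18r1 controls. The Nlrp3 mutants were just above their Controls and the het mutants well below theirs, and the difference was 0.67 ± 0.07 (adjusted p = 0.00234). Sesn1, a stress-induced inhibitor of mTOR signalling, had 25.3, 24.9 and 24.9 FPKM in the Nlrp3 mutants and 20.4, 19.5 and 21.2 in Controls, and 17.9, 18.8 and 18.3 in the Il18r1 het mutants and 22.1, 23.4, 23.7 and 21.2 in Il18r1 controls. Its changes were 0.29 and -0.29, a difference of 0.57 ± 0.07 (adjusted p = 0.00515). Hbp1, a repressor of cell cycle genes, showed the same pattern at 0.37 and -0.19, with a difference of 0.56 ± 0.07 (adjusted p = 0.00449). Ccng2, Sesn1 and Hbp1 were called in all 13 fits. Fbxo32, a ubiquitin ligase subunit of atrophying muscle, rose in the first experiment alone, with 6.46, 7.30 and 7.22 FPKM in the Nlrp3 mutants and 3.40, 3.90 and 3.01 in Controls, and 2.79, 3.70 and 3.81 in the Il18r1 het mutants and 3.70, 3.54, 3.71 and 3.62 in Il18r1 controls. Its difference of 0.93 ± 0.13 (adjusted p = 0.0112) likewise held in all 13.

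**Figure D4:**
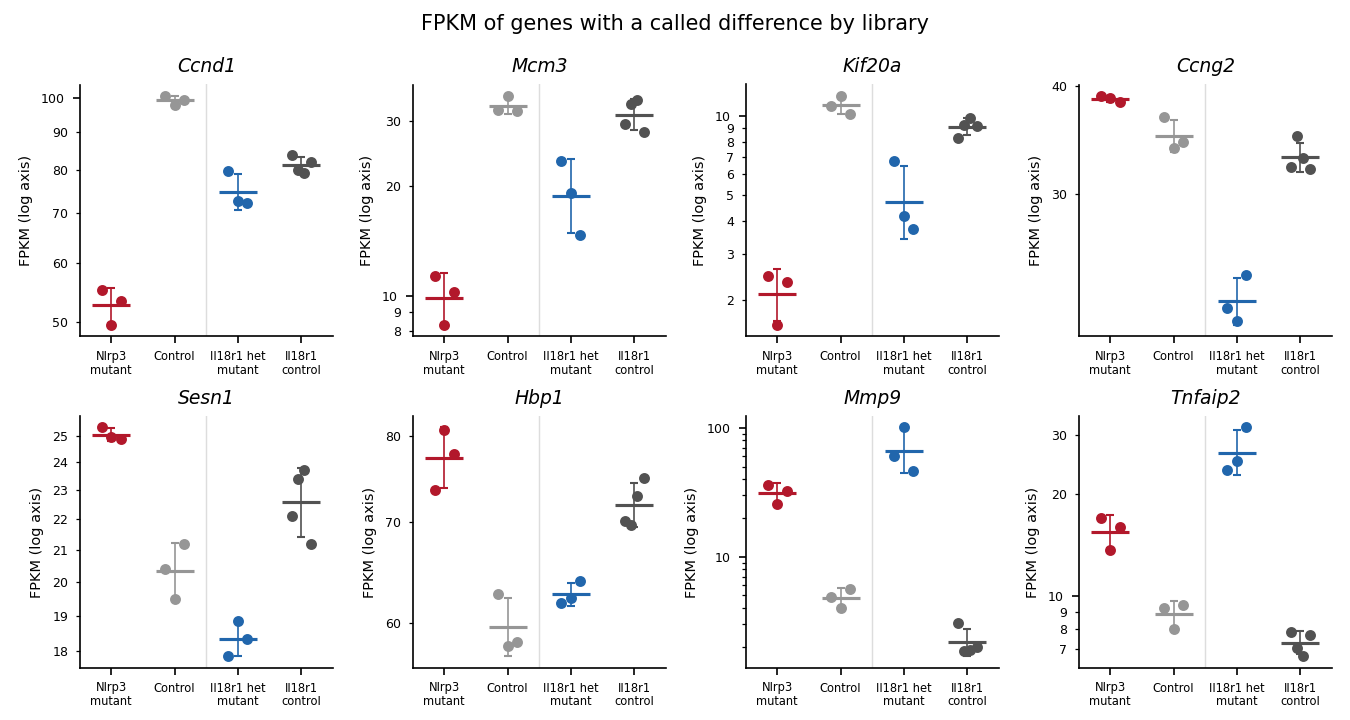
FPKM on log axes of 8 genes with a called difference in each library; points are libraries and bars the group mean ± SD of log2(FPKM + 1) turned back to FPKM. Ccnd1 lies at 49.5 to 55.2 in the Nlrp3 mutants and 97.9 to 101 in Controls, but at 72.2 to 79.7 in the Il18r1 het mutants and 79.2 to 83.9 in Il18r1 controls.

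Further genes were called in opposite directions in the 2 experiments. Gfra2, a receptor subunit for neurturin, fell in the Nlrp3 mutant and rose in the Il18r1 het mutant, with 37.5, 38.9 and 36.8 FPKM in the Nlrp3 mutants and 44.1, 45.3 and 48.2 in Controls, and 57.8, 50.1 and 53.6 in the Il18r1 het mutants and 42.1, 40.0, 39.6 and 41.2 in Il18r1 controls. No groups overlapped within an experiment, and the difference was -0.67 ± 0.08 (adjusted p = 0.00322; held in all 13). Neurl3, a ubiquitin ligase of the lung epithelium, likewise fell by 0.35 in the first experiment and rose by 0.55 in the second (difference -0.91 ± 0.18, adjusted p = 0.0249, held in 10 of 13). Ehd4, a protein of endosome recycling, rose by 0.31 in the first and fell by 0.31 in the second (difference 0.63 ± 0.10, adjusted p = 0.0136, held in all 13). Slfn9 and Tcp11l2, picked after their values were seen, changed in the first experiment and not in the second. Slfn9, a Schlafen family gene, had 1.07, 0.654 and 0.806 FPKM in the Nlrp3 mutants and 4.21, 4.71 and 4.67 in Controls, and 2.14, 2.20 and 1.20 in the Il18r1 het mutants and 1.87, 2.27, 2.41 and 2.08 in Il18r1 controls. Its difference was -1.42 ± 0.19 (adjusted p = 0.00670), and that of Tcp11l2 was 0.63 ± 0.09 (adjusted p = 0.00740), both held in all 13.

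Of 22 tested genes of surfactant lipid and cholesterol synthesis 4 were called lower and 18 were not called, beside 2.59% of all genes called lower. The count was 0 without Nlrp3 mutant 3, 1 without Control 2 and 3 to 6 without any other library. Among the called, 3 are enzymes of the mevalonate and squalene steps. Fdps, which makes farnesyl diphosphate, had 16.9, 14.6 and 15.4 FPKM in the Nlrp3 mutants and 20.1, 20.3 and 19.5 in Controls, and 17.8, 19.1 and 19.6 in the Il18r1 het mutants and 17.1, 14.6, 16.3 and 15.0 in Il18r1 controls. It fell in the first experiment and rose in the second, a difference of -0.58 ± 0.09 (adjusted p = 0.0144; held in 12 of 13). Sqle, the squalene epoxidase, and Idi1, an isomerase, fell in both and farther in the first, with differences of -0.62 ± 0.11 and -0.63 ± 0.12 (adjusted p = 0.020 and 0.0219; held in 11 and 10 of 13). The list's median difference was -0.22.

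All 9 platelet and megakaryocyte genes rose in both experiments and more in the first, with medians of 1.88 and 1.23. Of all genes 28.6% and 27.5% rose. In the difference 1 was called, beside 1.92% of all genes called higher. The count was 2 without het mutant 1, 1 without Control 3, Nlrp3 mutant 1 or het mutant 3, and 0 without any other library. Pf4, platelet factor 4, had 132, 135 and 139 FPKM in the Nlrp3 mutants and 22.5, 31.1 and 30.6 in Controls, and 98.6, 66.6 and 72.1 in the Il18r1 het mutants and 30.8, 26.3, 27.3 and 31.8 in Il18r1 controls. The difference was 0.85 ± 0.19 (adjusted p = 0.0356, held in 4 of 13), while the platelet glycoprotein Gp9 and the receptor Clec1b reached 0.97 and 0.80 without a call (adjusted p = 0.197 and 0.0662). Pf4 is also a member of the interstitial macrophage list. There 2 of 14 tested were called higher and 1 lower, beside 1.92% and 2.59% of all genes. Cd79a, a B cell receptor chain, fell in both and less in the first experiment, with 1.10, 0.740 and 1.06 FPKM in the Nlrp3 mutants and 5.02, 5.78 and 8.09 in Controls, and 0.725, 0.547 and 0.342 in the Il18r1 het mutants and 14.2, 9.72, 8.98 and 12.0 in Il18r1 controls. Its difference was 1.11 ± 0.24 (adjusted p = 0.0298, held in 8 of 13). It was the 1 called gene of 6 B cell markers, beside 4.52% of all genes. That count was 3 without Control 3, 0 without Control 1 or 2, Nlrp3 mutant 2 or 3 or Il18r1 control 4, and 1 without any other library. All 6 were positive, with a median of 0.53. Lef1, a transcription factor of Wnt signalling found in lymphocytes and mesenchyme, differed by 0.84 ± 0.16 (adjusted p = 0.0221; held in 11 of 13). Clec9a, a receptor of cross-presenting dendritic cells, had 18.6, 20.5 and 18.7 FPKM in the Nlrp3 mutants and 10.4, 11.1 and 11.3 in Controls, and 10.8, 14.7 and 15.4 in the Il18r1 het mutants and 13.8, 13.8, 14.8 and 15.0 in Il18r1 controls. It rose in the first experiment and overlapped in the second, and the difference of 0.84 ± 0.14 (adjusted p = 0.0144) held in all 13 fits. Most of the dendritic cell list went the other way. Of 5 tested markers 1 rose and 3 fell in each experiment, with median changes of -0.58 and -0.60. Of all genes 28.6% and 27.5% rose, and 28.5% and 28.3% fell. Clec9a was the 1 marker called in the difference, beside 4.52% of all genes. Erythroid genes were lower in both mutants, by a median of -1.96 in the first and -1.10 in the second. None of 9 was called in the difference, beside 4.52% of all genes, and 4 had an unadjusted p under 0.05, beside 23.1%.

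In lists of structural lung cells 0 to 2 members each had a called difference, beside 4.52% of all genes, and no test of equal change was run. Median differences were -0.02 for type 1 and -0.08 for type 2 alveolar epithelial markers (18 tested each), 0.10 for transitional epithelial markers (12) and 0.11 for airway markers (13). They were 0.04 for pan-endothelial markers (13) and -0.08 for elastic fibre and matrix assembly genes (25). In these 6 lists 2 genes were called, 1 type 2 marker and 1 elastic fibre gene. Outside them, 1 of 7 mesothelial, 1 of 12 general capillary and 2 of 10 pericyte markers were called. The share of members at an unadjusted p under 0.05 was 27.8% for type 1, 27.8% for type 2 and 28.0% for elastic fibre genes, 15.4% for pan-endothelial markers, and 0% for transitional and airway markers, beside 23.1% of all genes. It was 38.9% for myofibroblast and smooth muscle markers, with no call among 18, and 33.3% for aerocyte markers, with 1 call among 12. Etv5, a transcription factor of type 2 cells downstream of fibroblast growth factors, had 65.0, 68.6 and 65.2 FPKM in the Nlrp3 mutants and 49.2, 49.8 and 51.1 in Controls, and 49.5, 47.5 and 45.2 in the Il18r1 het mutants and 51.3, 47.9, 49.2 and 50.0 in Il18r1 controls. It rose in the first experiment without overlap and its difference of 0.46 ± 0.06 (adjusted p = 0.00882) held in all 13 fits. Fbn1, the microfibril protein fibrillin-1, fell by 0.66 in the first experiment, against 0.30 in the second (difference -0.36 ± 0.08, adjusted p = 0.0331, held in 4 of 13). Acta2, smooth muscle actin, fell in both, with 68.6, 62.3 and 64.3 FPKM in the Nlrp3 mutants and 264, 283 and 268 in Controls, and 88.9, 97.6 and 75.2 in the Il18r1 het mutants and 281, 281, 291 and 273 in Il18r1 controls. Its changes were -2.05 and -1.69, and the difference of -0.36 ± 0.11 was not called (adjusted p = 0.0709). Lox, the enzyme that crosslinks elastin and collagen, rose by 1.97 and 1.59 (difference 0.38 ± 0.10, adjusted p = 0.0556).

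Pdgfrb, the receptor that marks pericytes, fell in both, with 53.8, 54.0 and 53.8 FPKM in the Nlrp3 mutants and 70.4, 73.6 and 68.7 in Controls, and 44.7, 38.8 and 40.2 in the Il18r1 het mutants and 91.1, 82.3, 77.8 and 91.7 in Il18r1 controls. The fall was shallower in the first experiment, with a difference of 0.65 ± 0.09 (adjusted p = 0.0112) that held in all 13 fits; 2 of 10 pericyte markers were called (1 or 2 without 1 library), beside 4.52% of all genes. Sema3c, a guidance factor of capillary endothelium, changed by 0.01 in the first experiment, against -0.75 in the second (difference 0.76 ± 0.14, adjusted p = 0.0219, held in 12 of 13). Hpgd, which degrades prostaglandins, had 325, 464 and 385 FPKM in the Nlrp3 mutants and 222, 222 and 252 in Controls, and 243, 259.8 and 275 in the Il18r1 het mutants and 291, 274, 266 and 276 in Il18r1 controls. Mutants exceeded Controls in the first experiment and overlapped their controls in the second, with a difference of 0.83 ± 0.14 (adjusted p = 0.0162; held in 11 of 13). Bnip3, a mitophagy gene induced by low oxygen, rose by 1.39 and 0.72 (difference 0.67 ± 0.13, adjusted p = 0.0223, held in 10 of 13). It was the 1 called of 16 hypoxia and glycolysis genes, beside 4.52% of all genes. Timp1, an inhibitor of matrix proteases, rose less in the first experiment (difference -0.87 ± 0.22, adjusted p = 0.0461, held in 1 of 13).

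**Figure D5:**
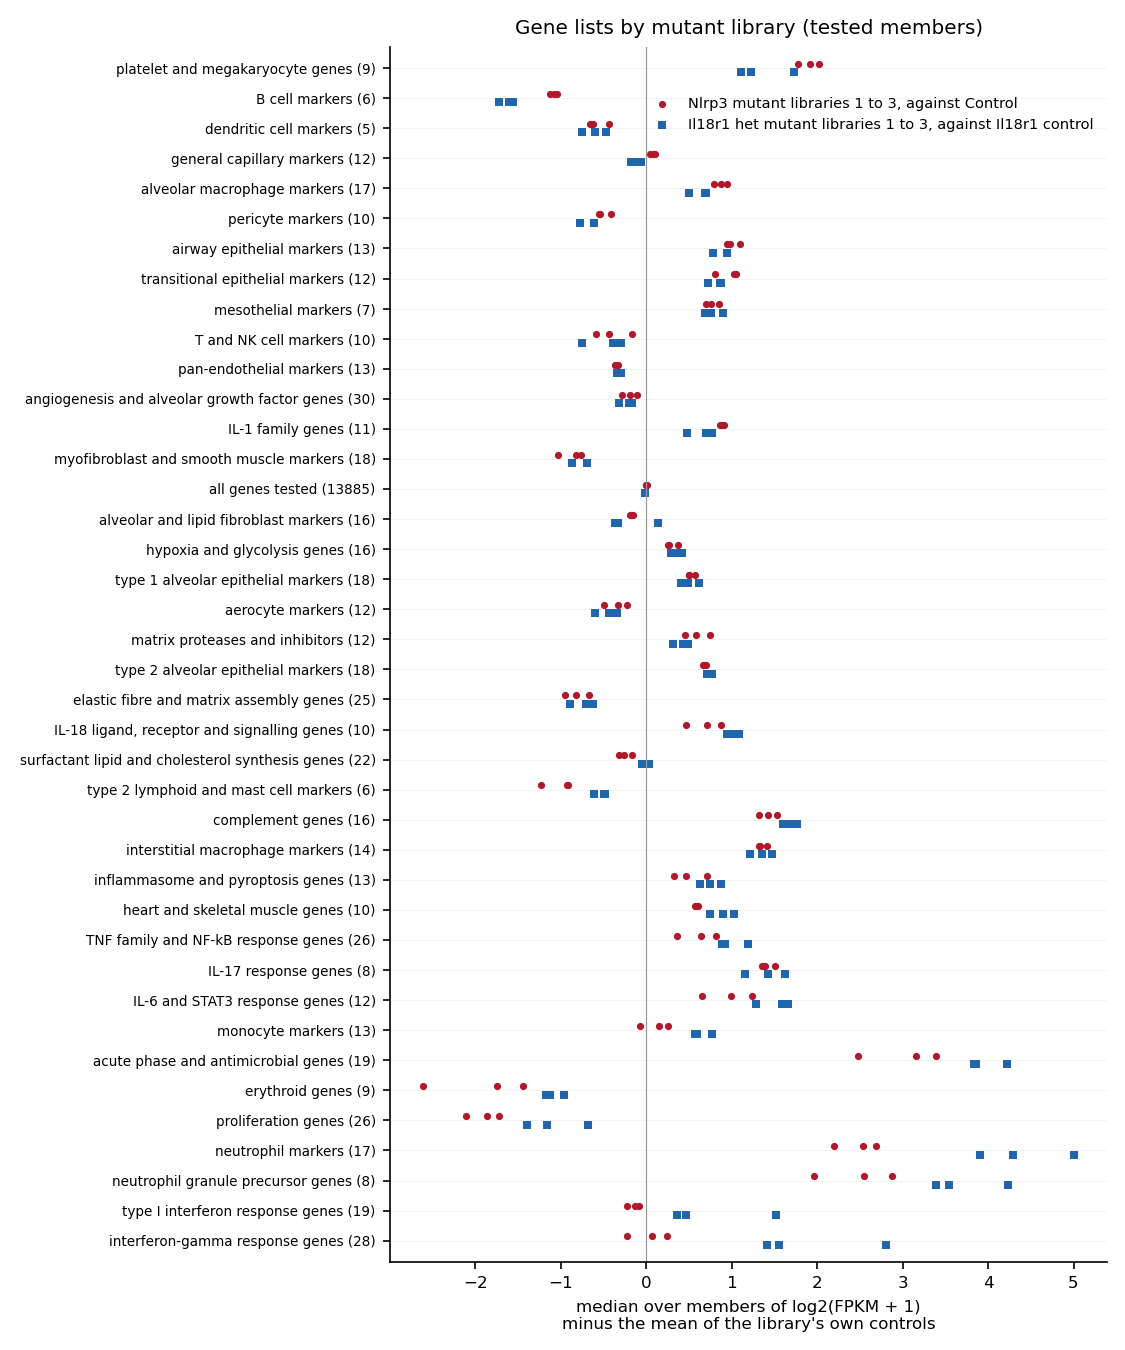
Each point is a mutant library; the horizontal axis gives the median over a list's tested members of log2(FPKM + 1) minus the mean of that library's own controls, and lists run from the most positive median difference at the top to the most negative at the bottom. Interferon-γ response genes lie at -0.22 to 0.25 in the Nlrp3 mutants and 1.42 to 2.81 in the Il18r1 het mutants, while type 1 alveolar epithelial, airway and pan-endothelial markers overlap between the experiments.

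Position around the altered loci was examined in the GRCm38 annotation. Of 16 tested genes within 2 Mb of Il18r1, none had a called difference. Near Nlrp3, 6 of 73 were called, among them Igtp and Irgm2 of the interferon-γ list, beside 4.52% of all genes. For a pair of short genes no fold is given. Mir703 was listed at 0 in every library of 3 of the groups and at 359, 594 and 744 FPKM in the Controls, and Snora81 was listed at 0 in the Nlrp3 mutants and the Il18r1 controls, with 17.8, 6.28 and 9.25 in Controls and 0, 7.25 and 17.2 in the Il18r1 het mutants. The authors' deposited table for the second experiment gives Mir703 a mean normalised count of 40.9 with a log2 change of 0.06, and Snora81 111 with 0.22, so a 0 in the FPKM table of that experiment does not mean that no reads were found. Both genes are among the 627 called.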

How the data were processed

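Whole-lung poly(A) RNA was sequenced as 50 bp paired-end reads, and reads were aligned with STAR to GRCm38 (mm10), per the submitters' processing notes. The deposited values are FPKM per gene and library in 1 table per experiment, a unit inferred from the values; the quantifier, annotation, strand setting and read depth are not given in the sources used here. A table that the authors deposited of the second experiment's comparison, with log2 fold changes, p-values, scores (standard errors and Wald statistics) and mean normalised signal, served only as an alternative.

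From 24354 lines, 27 with names turned into dates were left out. Values were used as log2(FPKM + 1), so changes of low genes are understated, and a gene was kept where at least 3 of 13 libraries reached 1 FPKM. One limma 3.58.1 fit (R 4.3.3, mean-variance trend) gave each of 4 groups a mean. Each change was taken inside its own table, and p-values were two-sided and Benjamini-Hochberg adjusted over all 13885 genes. The script was tested on simulated data. Replicate numbers were not used to pair the samples. Deviations of same-numbered libraries correlated at -0.06 to 0.11, and those of differently numbered ones at -0.10 to 0.13. So few values cannot exclude a shared litter or batch. Named genes were the IL-18 and inflammasome genes, the 12 largest differences each way, up to 3 members per list, the 8 largest mean rises and falls and up to 12 genes with opposite changes. Other called list members, and genes said to be picked after their values were seen, are named besides. Members and the 43 lists were chosen with earlier results of these data known. Alternatives were other scalings, filters, a pseudocount of 0.1, separate fits, weights and each library left out. Some members of the lists are counted but not reported by name here.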

Additional observations from a re-analysis of the deposited data

Results flagged for a closer look

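Values below are differences of log2 changes, the first experiment minus the second, for 69 genes named above whose difference passed the limma test (adjusted p below 0.05). Experiment and Il18r1 dose cannot be told apart in any of them. Mir703 and Snora81 are left out because no fold is given for them, and some list members are not named. Of these genes, the most negative values were Gbp5 -3.40, Igtp -3.24, Gbp6 -3.07, Tgtp1 -3.02, Cxcl10 -2.96, Gbp4 -2.95, Gbp2 -2.65, Irgm2 -2.59, Batf2 -2.57, Iigp1 -2.45, Gbp3 -2.36. Next came Irgm1 -2.34, Gbp7 -2.26, Tap1 -2.20, Nlrc5 -2.0, Irg1 -1.98, Mmp9 -1.93, Psmb9 -1.91, Il18bp -1.84, Irf1 -1.53, Treml4 -1.51, Slfn9 -1.42. Smaller were Plac8 -1.34, Oas3 -1.30, Psmb8 -1.30, Oas2 -1.24, Marco -1.21, Itgal -1.15, Ly6c2 -1.14, Kif20a -1.13, Stat2 -1.13, Aif1 -1.11, Cebpe -1.05. Then came Tnfaip2 -0.99, Trem1 -0.95, Mcm3 -0.94, Neurl3 -0.91, Timp1 -0.87, Cenpf -0.86, Il1f9 -0.84, Ccnd1 -0.79, Casp1 -0.77, Gzmb -0.68, Csf1r -0.67. The least negative were Gfra2 -0.67, Idi1 -0.63, Sqle -0.62, Nfkbie -0.61, Fdps -0.58, C1qb -0.56, Fbn1 -0.36. Positive values were Cd79a 1.11, Fbxo32 0.93, Pf4 0.85, Clec9a 0.84, Lef1 0.84, Hpgd 0.83, Traf1 0.81, Cd163 0.79, Sema3c 0.76, Ccng2 0.67, Bnip3 0.67. Smaller positive values were Pdgfrb 0.65, Tcp11l2 0.63, Ehd4 0.63, Sesn1 0.57, Hbp1 0.56, Etv5 0.46, Cd36 0.44.

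In the group of 4 Il18r1 controls, a library stood apart from the others by Dixon's test for 2 of 91 genes. Mmp9 had 3.04 FPKM in Il18r1 control 1, and Slc4a1, an erythrocyte anion exchanger, had 21.4 FPKM in one such library. Chance gives about 1 such group in 20.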

How the results depend on the processing

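Requiring a log2 size of at least 1 left 3 higher and 84 lower differences, 1108 calls in the first experiment, 1074 in the second and 1054 for the mean effect. Counts of higher differences were 156 at equal total FPKM and 677 in a robust fit with array weights. Counts of lower ones were 188 without a filter, 541 with separate fits and 896 in the robust fit. With the replicate number as a block, 0 differences were higher and 4 lower. Whether the numbers mark pairs is not known. Leaving out 1 library gave 22 to 368 higher and 20 to 548 lower. The Il18bp difference was -1.84 without a filter (adjusted p = 0.0612) and -1.83 with the replicate block (adjusted p = 0.113), and -2.12 to -1.30 without 1 library. The sign of small differences turned for Il18r1 in the robust fit (0.0079) and, with 1 library left out, for Nlrp3 (-0.24 to 0.0801) and Il18rap (-0.30 to 0.0361). The cause of these shifts was not tested. Of 1982 checks over 91 named genes, 1517 kept direction and call, 427 lost the call, 34 gained it and 4 were reversed. These checks include genes whose difference was not called at the outset. Of the 69 called genes, 16 kept the call without Nlrp3 mutant 3, 18 without Control 2 and 25 without Nlrp3 mutant 2. Without any other library 37 to 67 kept it. With the replicate block 1 did, without a filter 49 and at equal total FPKM 67. Of 18063 genes in the authors' deposited table, 8352 passed for the second experiment. Precision is limited by 3 or 4 libraries per group and unknown depth.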
